A study of Mus musculus with 20 samples.

Results

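The genes described here encode, in the nucleus, the subunits of the mitochondrial respiratory chain and of ATP synthase. They were chosen by name, as the genes of the Ndufa, Ndufb, Ndufc, Ndufs, Ndufv, Uqcr, Cox4i, Cox5, Cox6, Cox7, Cox8 and Atp5 families together with Sdha, Sdhb, Sdhc, Sdhd, Cyc1 and Cycs. Assembly factors (Ndufaf) and the muscle and brown fat forms Cox7a1 and Cox8b were left out. Of 18194 genes with a probe set of their own on the array, 82 were members, and 78 of these were bright enough to be tested: 34 of 36 for complex I, 4 of 4 for complex II, 9 of 9 for complex III, 14 of 16 for complex IV with cytochrome c, and 17 of 17 for ATP synthase, or complex V. Complexes I and II pass electrons from NADH and succinate to coenzyme Q, complex III passes them on to cytochrome c, and complex IV hands them to oxygen, while complexes I, III and IV pump protons that drive ATP synthase. In white fat this machinery serves the adipocyte, which has few mitochondria beside brown fat, and also the vascular, stromal and immune cells around it.

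RNA of visceral fat from 20 female C57BL/6J mice was hybridised to Affymetrix mouse genome arrays, 1 mouse to an array and 5 mice to a group. Control mice received a diet with 10% fat and high fat (HF) mice a diet with 58% fat, begun before mating, and mice of both diets were either non pregnant or pregnant at E18.5, late in gestation. Each of the 4 groups is named by its diet and its state, such as HF pregnant, and the labels give E18.5 for the non pregnant mice as well. The study names the depot as mesenteric for the arrays, visible lymph nodes had been dissected away, and fewer cells of a type and less RNA per cell cannot be told apart in such whole tissue samples. The adipocyte gene Adipoq was at 13.81 or above on the log2 scale in all 20 arrays. Arrays had close median intensities, from 60.69 to 64.73, and the number of arrays limits the precision. Pancreatic acinar genes stood far above the other arrays in control pregnant mouse 2 and control non pregnant mouse 4, by a mean log2 deviation of 5.97 and 5.66, and the former also had the highest intestinal score, 2.19.

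HF feeding went with lower mean levels of nearly every member. Averaged over non pregnant and pregnant mice, 75 of 78 genes had a lower mean on the HF diet, with a median log2 difference (HF minus control) of -0.26, a change of -16.6%, where the median of all 19802 probe sets tested was 0.04 and 42.4% of them were lower. The differences were near the size of the spread between mice, the median within-group SD of a member being 0.20. With limma, adjusted over all 19802 probe sets, 3 of 78 members fell with an adjusted p under 0.05 while 0 rose. Over all probe sets, 1.11% were called lower and 0.136% higher. At an unadjusted p under 0.05, 67 members were lower and 2 higher, against 13.5% lower and 16.1% higher of all probe sets. The number of calls depended on which arrays were included, among the members and among all probe sets alike. Without control pregnant mouse 2, 60 members were called lower and 2 higher, where 9.85% of all probe sets were called lower and 12% higher. Without HF non pregnant mouse 4 there were 48 members, all lower, against 4.22% of all probe sets, and without control pregnant mouse 4 there were 17, all lower, against 2.96%. Counts were 7 without control non pregnant mouse 1 (2.03% of all lower), 7 without HF pregnant mouse 5 (1.58%), 6 without control non pregnant mouse 2 (2.07%), 4 without HF non pregnant mouse 2 (1.65%) and 1 without control pregnant mouse 5 (0.941%), all lower. In the other 12 of the 20 fits that left out 1 mouse no member was called.

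All 5 complexes shared the direction. The median log2 difference was -0.28 over complex I, -0.34 over complex II, -0.33 over complex III, -0.23 over complex IV with cytochrome c and -0.21 over ATP synthase. Every tested gene of complexes I, II, III and V had a negative difference, and the 3 positive ones, Cox7a2l, Cox7c and Cox6a2, all belonged to complex IV. Most probe sets shared the direction, with 138 of the 145 tested for these genes lower on the HF diet. Of 44 genes with several probe sets, 41 had all of them lower, 1 (Cox7a2l) had all of them higher, and Atp5c1 and Ndufab1 had them in both directions.

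**Figure D1:**
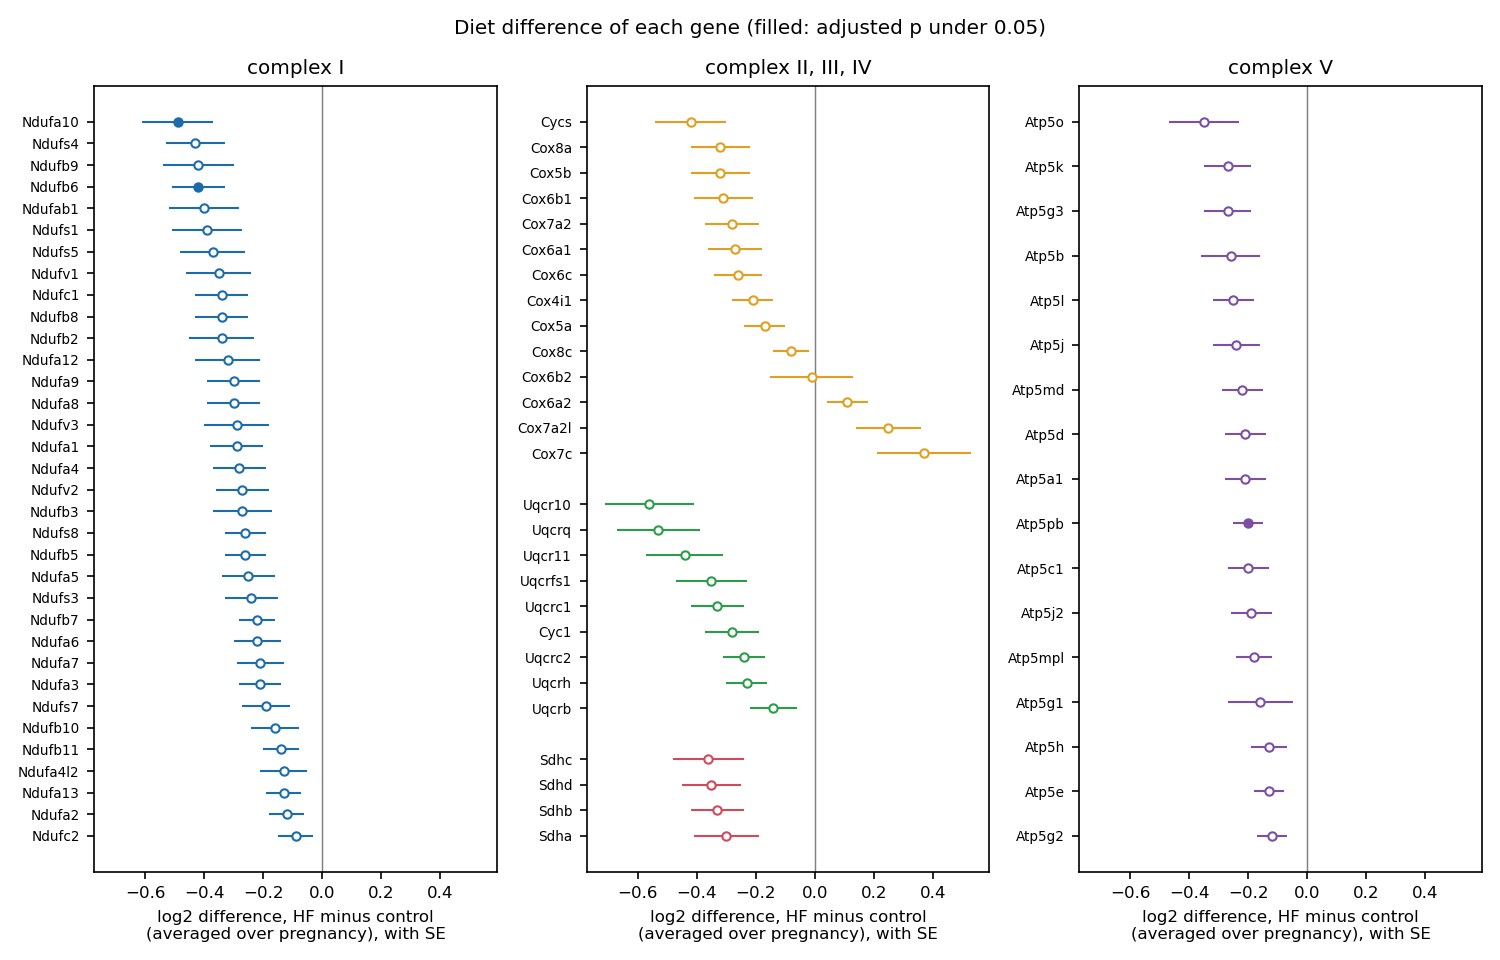
Log2 difference of each of the 78 tested genes between HF and control mice, averaged over non pregnant and pregnant mice, with its standard error; genes are grouped by complex and filled points have an adjusted p under 0.05. All genes of complexes I, II, III and V lie left of 0, and Cox7a2l, Cox7c and Cox6a2 lie right of it.

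Per mouse, the members were summarised as the mean log2 deviation of the 78 genes from their means over all arrays. This score was 0.03, 0.03, 0.24, 0.13 and 0.16 in control non pregnant mice and -0.27, -0.12, -0.10, 0.13 and -0.40 in HF non pregnant mice. It was 0.41, -0.13, 0.31, -0.03 and 0.11 in control pregnant mice and -0.09, -0.16, -0.14, -0.17 and 0.08 in HF pregnant mice. Group means were 0.12 ± 0.09, -0.15 ± 0.20, 0.13 ± 0.23 and -0.10 ± 0.10 (SD, n = 5) in the same order. The diets overlapped in both states. HF non pregnant mouse 4 and HF pregnant mice 1 and 5 lay within the control range of their state, and control pregnant mice 2 and 4 lay within the range of the HF pregnant mice. Scores of the 5 complexes rose and fell together between mice of the same group, with correlations of 0.90 to 0.99 over the 20 mice after removal of group means, values that also carry whatever an array has in common across genes.

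**Figure D2:**
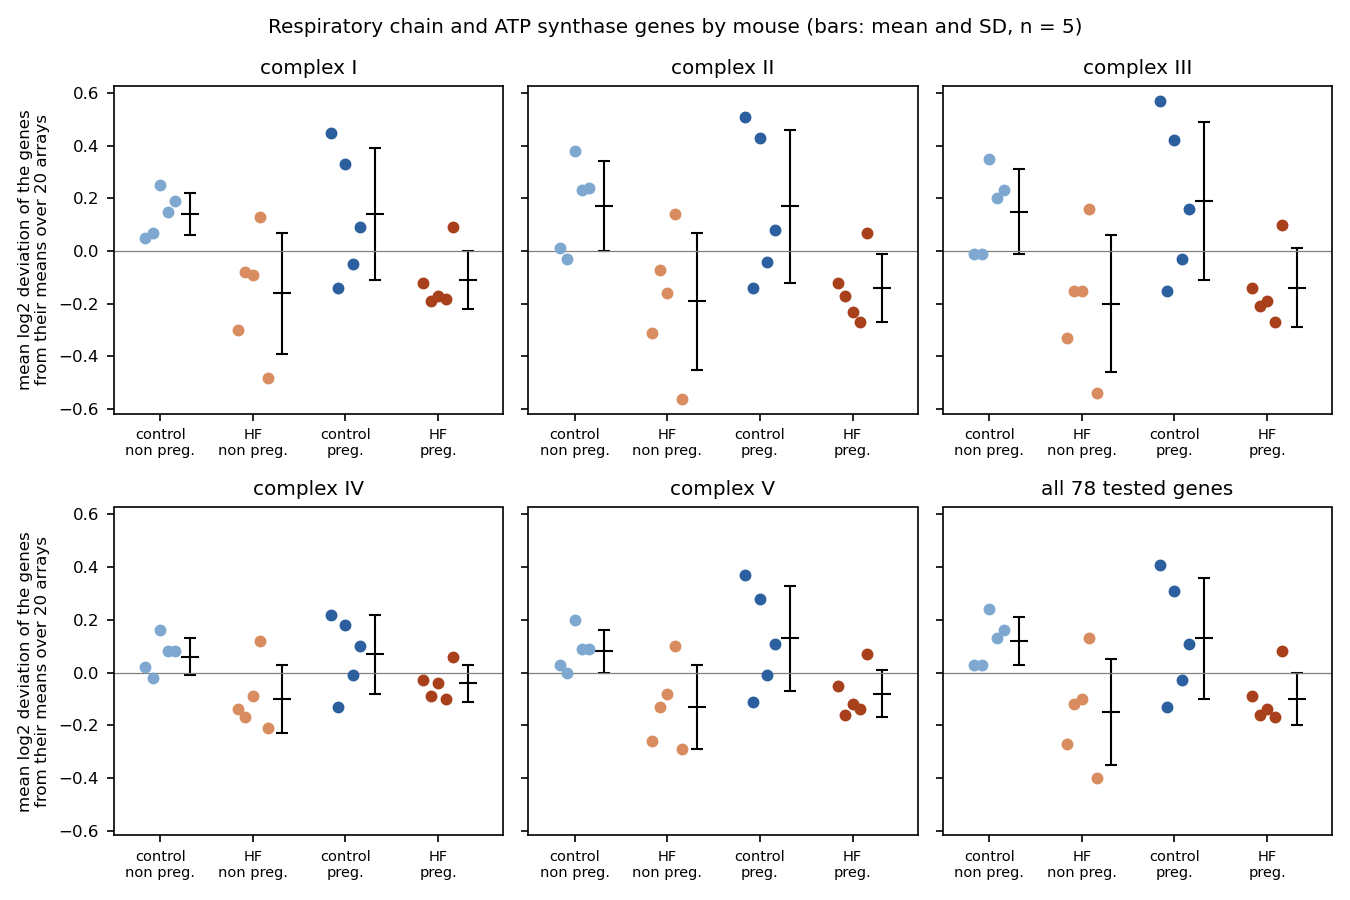
Mean log2 deviation of the genes of each complex, and of all 78 tested genes, from their means over 20 arrays, for each mouse in the 4 groups, with the group mean and SD (n = 5). HF mice lie lower than control mice in each panel by mean, with control pregnant mouse 2 and HF non pregnant mouse 4 on the far side of their groups.

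Complex I, the NADH dehydrogenase, held 2 of the 3 called genes. Ndufb6, an accessory subunit of its membrane arm, was at a log2 intensity of 11.91, 11.90, 12.16, 11.94 and 12.08 in control non pregnant mice and 11.49, 11.87, 11.61, 11.86 and 11.19 in HF non pregnant mice. In control pregnant mice it was at 12.33, 11.72, 12.33, 11.95 and 12.03, and in HF pregnant mice at 11.65, 11.55, 11.59, 11.73 and 11.66. All HF mice lay below all control mice in the non pregnant state, whereas in pregnancy control mouse 2 lay just below the highest HF mouse. Averaged over both states Ndufb6 fell by 0.42 on the log2 scale (SE 0.09, adjusted p = 0.0357 by limma), and its other probe set gave -0.44.

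Ndufa10, another accessory subunit of the membrane arm, was at 11.48, 11.53, 11.99, 11.82 and 11.88 in control non pregnant mice and 11.23, 11.39, 11.33, 11.70 and 10.85 in HF non pregnant mice. It was at 12.30, 11.44, 12.03, 11.56 and 11.70 in control pregnant mice and 11.12, 11.30, 11.21, 11.10 and 11.55 in HF pregnant mice. The groups overlapped by 1 HF mouse in each state, mouse 4 of the non pregnant and mouse 5 of the pregnant. It fell by 0.49 (SE 0.12, adjusted p = 0.0476), and its dimmer second probe set gave -0.58.

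Other complex I genes had differences of like size that did not pass the threshold. Ndufs4, an accessory subunit of the matrix arm, came closest, with a difference of -0.43 (SE 0.10, adjusted p = 0.0509), and in pregnancy its HF values, 9.37 to 9.79, lay just under its control values, 9.80 to 10.44. Ndufc1, Ndufb8 and Ndufb5, all of the membrane arm, had differences of -0.34, -0.34 and -0.26. At the other end stood Ndufc2 (-0.09), Ndufa2 (-0.12), Ndufa13 (-0.13) and Ndufa4l2 (-0.13). Ndufa4, counted here with complex I by its name though now assigned to complex IV, had a difference of -0.28. Ndufb1 and Ndufb4 exceeded an intensity of 100 in 2 and 0 of 20 arrays and were not tested.

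Complex II, succinate dehydrogenase, had differences close to each other, -0.30 for the flavoprotein Sdha, -0.33 for the iron-sulphur protein Sdhb, and -0.36 and -0.35 for the membrane anchors Sdhc and Sdhd. None passed the threshold, their adjusted p lying between 0.0654 and 0.11. Sdhb was at 11.43 to 11.70 (median 11.68) in control non pregnant mice and 10.98 to 11.62 (median 11.28) in HF non pregnant mice. It was at 11.32 to 11.97 (median 11.52) in control pregnant mice and 11.21 to 11.43 (median 11.25) in HF pregnant mice. The diets overlapped for Sdhb in both states.

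Complex III held the largest differences of all members. Uqcr10, a small membrane subunit, was at 11.46, 11.35, 12.07, 11.70 and 11.83 in control non pregnant mice and 10.99, 11.16, 11.21, 11.74 and 10.63 in HF non pregnant mice. It was at 12.36, 11.23, 12.10, 11.60 and 11.82 in control pregnant mice and 11.18, 11.09, 11.17, 11.08 and 11.66 in HF pregnant mice. HF non pregnant mouse 4 and HF pregnant mouse 5 were again the highest of their groups and lay among the controls. The difference was -0.56 (SE 0.15, adjusted p = 0.0629). Uqcrq differed by -0.53 (SE 0.14, adjusted p = 0.0557). In pregnancy its HF values (11.02 to 11.44) lay just under those of controls (11.44 to 12.28), the nearest ones equal as rounded here. The core proteins Uqcrc1 and Uqcrc2 had smaller differences, -0.33 and -0.24.

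Complex IV, cytochrome c oxidase, was the complex in which members parted. Its electron donor cytochrome c, encoded by Cycs, differed by -0.42 (SE 0.12, adjusted p = 0.0677), and the ubiquitous subunits Cox5b, Cox6b1, Cox8a and Cox7a2 by -0.32, -0.31, -0.32 and -0.28, with none past the threshold. Cox4i1 had -0.21 and Cox6a1 -0.27. The tissue-restricted forms were dim, with Cox6a2, the striated muscle form, and Cox6b2 and Cox8c, known from testis, at 0.11, -0.01 and -0.08. Cox4i2 and Cox7b2 exceeded 100 in 2 and 0 of 20 arrays and were not tested.

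Cox7a2l, which joins complexes III and IV into supercomplexes and is known in this strain as a shortened form, ran the other way. It was at 11.13, 10.98, 10.80, 11.11 and 11.14 in control non pregnant mice and 11.36, 10.82, 11.20, 11.18 and 11.61 in HF non pregnant mice. It was at 10.73, 11.50, 10.70, 11.27 and 11.03 in control pregnant mice and 11.41, 11.39, 11.47, 11.31 and 11.14 in HF pregnant mice. Its highest values were in HF non pregnant mouse 5 and control pregnant mouse 2, the mice with the lowest Ndufb6 of their groups, and the diets overlapped in both states. The difference of 0.25 (SE 0.11) did not pass (adjusted p = 0.14), nor did those of its other probe sets, 0.18 and 0.21. Cox7c was higher by 0.37 (SE 0.16, adjusted p = 0.143), but it was read by 1 dim probe set, which exceeded 100 in 17 of 20 arrays and whose suffix marks probes shared with other transcripts. With the score of B and T cell genes, described further on, as a covariate, the differences were 0.12 for Cox7a2l and 0.15 for Cox7c. They were 0.12 and 0.19 with the adipocyte score, and 0.04 and 0.16 with the brown fat score. The smaller differences were thus not particular to the B and T cell score, and their cause was not tested.

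**Figure D3:**
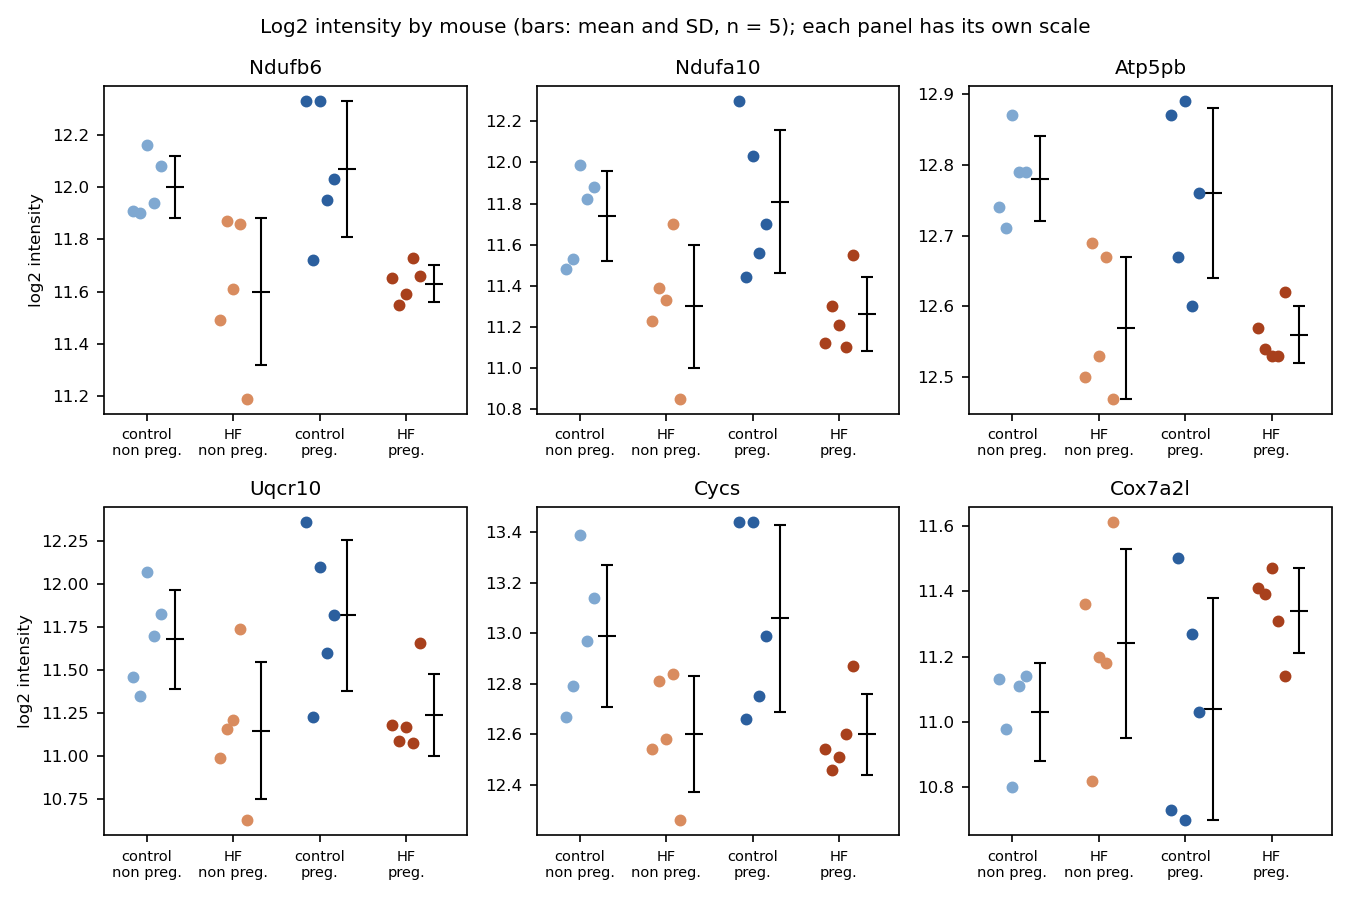
Log2 intensity of 6 members in each mouse of the 4 groups, with the group mean and SD (n = 5); the panels have separate scales and are not compared with each other. Ndufb6, Ndufa10, Atp5pb, Uqcr10 and Cycs have lower means in both HF groups, and Cox7a2l has higher ones.

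ATP synthase had the third called gene, Atp5pb, subunit b of the stalk that holds the catalytic head in place. It was at 12.74, 12.71, 12.87, 12.79 and 12.79 in control non pregnant mice and 12.50, 12.69, 12.53, 12.67 and 12.47 in HF non pregnant mice. It was at 12.87, 12.67, 12.89, 12.60 and 12.76 in control pregnant mice and 12.57, 12.54, 12.53, 12.53 and 12.62 in HF pregnant mice. The non pregnant groups did not overlap, and in pregnancy only control mouse 4 lay below an HF mouse. Atp5pb fell by 0.20 (SE 0.05, adjusted p = 0.0454), a difference smaller than many that did not pass, with less spread between mice. The membrane subunits Atp5k, Atp5l and Atp5md had differences of -0.27, -0.25 and -0.22. The 3 genes of the proton-carrying subunit c had -0.16 (Atp5g1), -0.12 (Atp5g2) and -0.27 (Atp5g3). The gene of the inhibitory factor, listed as Atpif1 and no member by name, had group means of 10.27, 10.39, 10.25 and 10.38 in the order above.

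Promoter sequence is shown for the 3 called genes, for Cox7a2l as the bright member that ran the other way, and for Sdhd as the member with the most kinds of motif. A RefSeq window (GRCm38.p6, 250 bases before the start to 50 after it) was on hand for 63 of the 78 genes, and 4 motifs of factors known to act on respiratory genes were searched on both strands. The printed 250 bases lie before the start, written 5′ to 3′ on the strand of the gene, with motif matches in capitals. They are at chr4:40279422-40279671 for Ndufb6, chr1:92473759-92474008 for Ndufa10, chr3:105959264-105959513 for Atp5pb, chr9:50603850-50604099 for Sdhd and chr17:83514334-83514583 for Cox7a2l, all on the minus strand.
Ndufb6: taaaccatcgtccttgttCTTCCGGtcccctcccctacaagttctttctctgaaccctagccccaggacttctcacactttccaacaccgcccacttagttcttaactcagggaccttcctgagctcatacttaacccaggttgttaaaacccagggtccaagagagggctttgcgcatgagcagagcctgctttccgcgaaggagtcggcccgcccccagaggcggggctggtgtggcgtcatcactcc
Ndufa10: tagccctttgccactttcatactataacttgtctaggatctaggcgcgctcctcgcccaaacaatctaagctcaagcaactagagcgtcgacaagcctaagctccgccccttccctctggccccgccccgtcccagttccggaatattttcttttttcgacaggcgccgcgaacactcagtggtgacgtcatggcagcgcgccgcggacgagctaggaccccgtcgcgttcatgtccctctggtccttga
Atp5pb: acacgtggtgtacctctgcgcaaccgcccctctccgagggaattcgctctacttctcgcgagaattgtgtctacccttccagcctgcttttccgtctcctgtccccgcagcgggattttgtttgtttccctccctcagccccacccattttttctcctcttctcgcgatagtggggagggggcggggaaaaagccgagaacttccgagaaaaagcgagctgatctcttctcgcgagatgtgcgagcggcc
Sdhd: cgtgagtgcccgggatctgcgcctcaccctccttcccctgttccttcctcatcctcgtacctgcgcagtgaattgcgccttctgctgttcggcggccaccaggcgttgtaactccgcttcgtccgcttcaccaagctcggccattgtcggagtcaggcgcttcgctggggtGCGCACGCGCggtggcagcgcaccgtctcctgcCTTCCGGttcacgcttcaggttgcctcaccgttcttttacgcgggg
Cox7a2l: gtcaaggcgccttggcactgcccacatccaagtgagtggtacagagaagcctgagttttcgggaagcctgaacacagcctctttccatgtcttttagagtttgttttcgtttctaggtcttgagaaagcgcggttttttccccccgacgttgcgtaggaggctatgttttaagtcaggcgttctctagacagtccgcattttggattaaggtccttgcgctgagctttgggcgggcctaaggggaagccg
The capitals in Ndufb6 are a match to the GABPA motif that begins at base -232 from the start. Those in Sdhd are a match to the NRF1 motif and then 1 to the GABPA motif, which begin at bases -79 and -46. The ERR match of Sdhd lies outside the part printed, and the other 3 sequences hold no match in it.

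Over the windows, the NRF1 motif, which is the 10 letters capitalised first in Sdhd with any base at the sixth position, was in 22.2% of members, 11.8% of the 8564 tested genes with a window and 5.19% of all 27025 genes with one. The GABPA motif CCGGAAG was in 27% of members and 20.1% of tested genes, the YY1 motif AANATGGCG in 14.3% and 6.19%, and the ERR motif TCAAGGTCA in 3.17% (2 genes, Sdhd and Atp5g3) and 0.327%. Among lists described further on, GABPA matches were in 37.3% of mitochondrial ribosome, 46.3% of assembly factor and 47.4% of cytosolic ribosome genes. Tricarboxylic acid cycle genes had 18.8%. In the same lists NRF1 matches were in 10.5% to 17.9% and YY1 matches in 12.2% to 16.4%. ATP synthase windows held the NRF1 motif in 6 of 15 genes, and complex I windows in 4 of 30. Medians were near each other with and without a match. Members with and without an NRF1 match had median log2 differences of -0.27 and -0.26, and members with and without a GABPA match -0.26 and -0.27. The genes of these factors, named here because their motifs were searched, had averaged differences of 0.23 for Nrf1, 0.10 for Gabpa, 0.25 for Yy1 and -0.19 for the estrogen-related receptor gene Esrra, none past the threshold. A match of letters is a description and no evidence that a factor binds there.

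In the non pregnant mice alone, 75 of 78 members were lower on the HF diet, where 48.4% of all probe sets were, with a median of -0.29. None was called; limma called 0% of all probe sets, and the lowest adjusted p of a member was 0.281. At an unadjusted p under 0.05, 54 members were lower and 0 higher, where 7.22% of all probe sets were lower and 10.5% higher. That count of 54 was 14 without HF non pregnant mouse 5 (2.22% of all lower), 21 without HF non pregnant mouse 1 (3.58%), 25 without control non pregnant mouse 3 (4.14%) and 34 without control non pregnant mouse 4 (5.06%), while the median stayed between -0.36 and -0.22 over the 20 fits without 1 mouse. In 5 genes, Ndufb5, Ndufb6, Ndufc2, Atp5md and Atp5pb, all HF mice lay below all control mice, which 0.712% of all probe sets did. In pregnant mice alone 74 members were lower, against 40% of all probe sets, with a median of -0.25. Again none was called, where 0.177% of all probe sets were called lower and 0.0151% higher. At an unadjusted p under 0.05, 38 members were lower and 0 higher, against 7.93% lower and 4.9% higher of all. Leaving out 1 mouse gave 8 to 56 in place of 38 and medians of -0.31 to -0.17. Of the control pregnant mice, leaving out mouse 1 gave 8 (4.05% of all lower), mouse 3 gave 12 (4.24%), mouse 5 gave 25 (8.85%) and mouse 2 gave 56 (11.7%). It was 16, 19 and 22 without HF pregnant mice 2, 3 and 4 (6.37%, 5.69% and 6.2%). The genes whose pregnant groups did not overlap were Ndufs4, Ndufs8, Uqcrq and Atp5g2, all lower on the HF diet, a pattern seen in 1.95% of all probe sets.

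**Figure D4:**
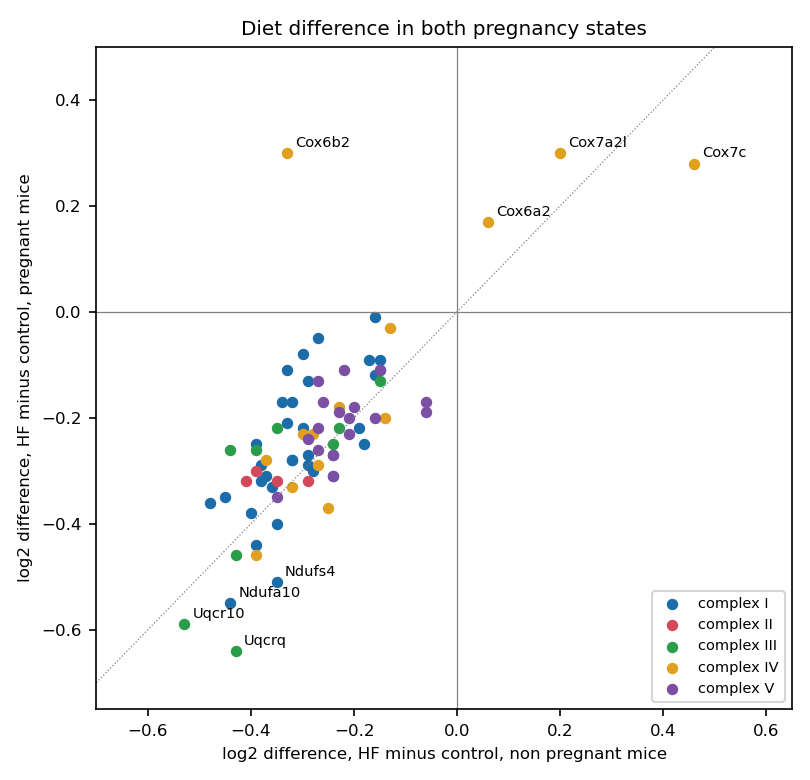
Log2 difference between HF and control mice in the non pregnant state (horizontal axis) and in pregnancy (vertical axis) for each of the 78 genes, coloured by complex, with the line of equal differences dotted. Most genes lie at the lower left, below 0 on both axes, with Cox7a2l, Cox7c and Cox6a2 positive on both axes and Cox6b2 of opposite sign on them.

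The differences of the 78 genes in both states, which come from separate mice, had a correlation of 0.74 across genes; genes of 1 array are not independent, so no test is given. Complex III had the lowest medians in non pregnant mice (-0.39) and complex II in pregnant mice (-0.32). The diet difference itself did not detectably change with pregnancy. The interaction of diet and pregnancy called 0 members, as it called 0% of all probe sets, and gave a median of 0.04 with a range from -0.21 to 0.63. At an unadjusted p under 0.05, which 1.35% of all probe sets met with a positive and 1.73% with a negative sign, it held 1 member, the dim Cox6b2 (0.63, SE 0.29, adjusted p = 0.933), which was lower on the HF diet in non pregnant mice (-0.33) and higher in pregnant mice (0.30), neither past the threshold. Without control pregnant mouse 2, whose Cox6b2 was far below that of its group, the pregnant difference was 0.09 and the interaction 0.42, and no member had an unadjusted p under 0.05.

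No member was called between pregnant and non pregnant mice on either diet. In control mice the median log2 difference (pregnant minus non pregnant) was 0.01, with genes from -0.32 to 0.28, 0 called and 0 at an unadjusted p under 0.05. Of all probe sets 0% were called, and 1.38% were higher and 1.52% lower at that unadjusted p. In HF mice the median was 0.04, with genes from -0.12 to 0.36 and 0 called, where 0.0151% of all probe sets were called higher and 0.0101% lower. At an unadjusted p under 0.05, met by 2.21% of all probe sets as higher and 2.45% as lower, stood 1 member, Atp5g1, which was at 9.85 to 10.40 (median 10.03) in HF non pregnant mice and 10.16 to 10.85 (median 10.43) in HF pregnant mice. Those ranges overlapped. Averaged over diets, Atp5g1 was higher in pregnancy by 0.31 (SE 0.11, adjusted p = 0.879), and the median of all members was 0.03 with 0 called, where 0.0101% of all probe sets were called higher and 0% lower. Atp5g1 was again the 1 member at an unadjusted p under 0.05, against 2.07% of all probe sets higher and 2.51% lower.

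Other lists of mitochondrial genes also had negative medians. Assembly factors had a median of -0.25 with 44 of 47 lower and 1 called, Cox20 (-0.40, adjusted p = 0.0232), a factor for complex IV. Of 11 coenzyme Q synthesis genes all were lower, with a median of -0.31 and none called; Coq7 was lowest in p at -0.55 (adjusted p = 0.0654). Cristae and prohibitin genes had 13 of 14 lower, a median of -0.28 and none called, with Micos10 at -0.28 (adjusted p = 0.0591). Mitochondrial ribosome genes had a smaller median, -0.18, with 73 of 76 lower and 1 called, Mrps15 (-0.45, adjusted p = 0.0476). Of all probe sets 1.11% were called lower and 0.136% higher in this comparison, which applies to the lists below as well. A single call among 47 or 76 genes is near that share and is not read as a result about the list.

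Larger single differences were found among genes of the tricarboxylic acid cycle and of mitochondrial carriers. Among genes of the tricarboxylic acid cycle and pyruvate dehydrogenase, 16 of 17 were lower with a median of -0.28, and the called ones were Pdha1 (-0.78, adjusted p = 0.0249) and Pdhb (-0.96, adjusted p = 0.034), both of pyruvate dehydrogenase. Among carriers and pores, 10 of 11 were lower and 3 fell, of which Mpc1, a pyruvate carrier subunit, had -1.36 (adjusted p = 0.00554) and Slc25a1, the carrier that exports citrate to the cytosol, -1.74 (adjusted p = 0.0172). Of the genes in mitochondrial DNA 1 was read, ND5, a complex I subunit, at -0.26 (adjusted p = 0.111). Of the uncoupling proteins Ucp3 was tested, at -0.73 (adjusted p = 0.0557).

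The regulators of mitochondrial biogenesis had no common direction, with 8 of 17 lower, a median of 0.01 and none called. Mterf3 had their lowest p, with a difference of 0.16 (adjusted p = 0.074). The coactivator gene Ppargc1a differed by -0.62 in non pregnant and 0.00 in pregnant mice, neither past the threshold. Cytosolic ribosome genes stood on the other side of 0, with 41 of 44 higher, a median of 0.20 and none called (Rpl4, 0.28, adjusted p = 0.0852).

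**Figure D5:**
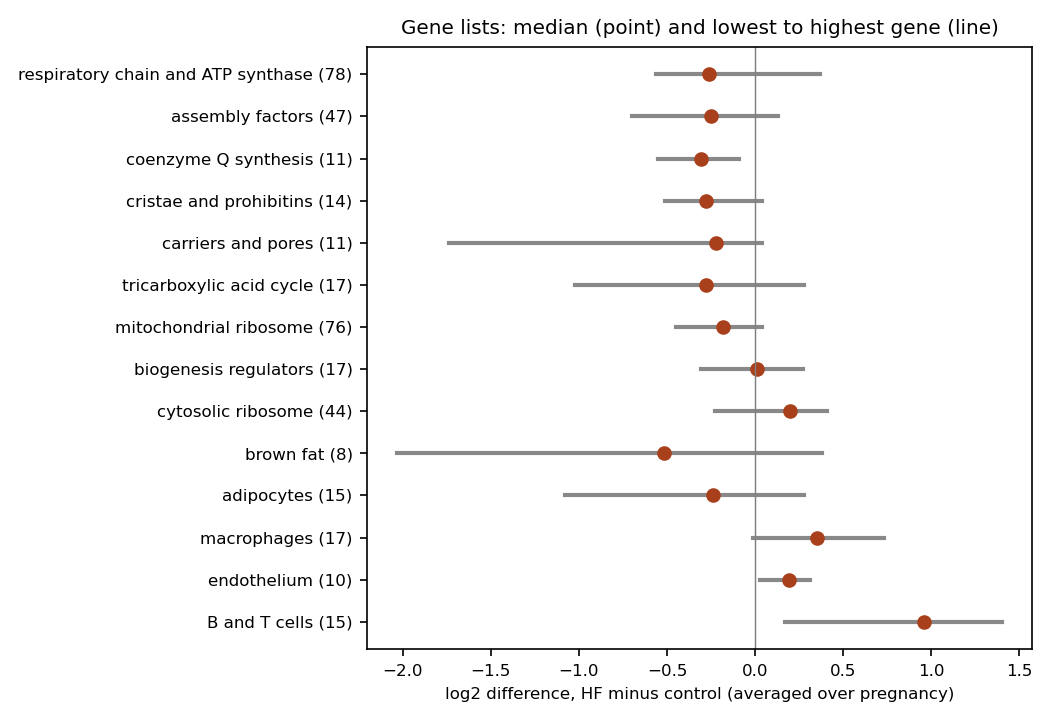
Median (point) and lowest to highest gene (line) of the log2 difference between HF and control mice, averaged over pregnancy, for the members and for other gene lists, with the number of tested genes in brackets. The plotted lists from the members down to the mitochondrial ribosome have medians from -0.31 to -0.18, the biogenesis regulators 0.01, and cytosolic ribosome, macrophage, endothelial and B and T cell lists lie above 0.

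Marker lists of several cell types had diet differences of their own, given here as counts and levels without a test of any list. B and T cell genes, expressed in lymph nodes and in fat, were higher on the HF diet in 15 of 15 tested, with a median log2 difference of 0.96 and none called. Their summed intensity ranged from 1505 to 8759 without and 3444 to 25430 with HF feeding in non pregnant mice, and from 1205 to 17010 without and 1557 to 11940 with it in pregnancy. In control pregnant mice the mouse with the lowest member score, mouse 2, had the highest B and T cell score (1.5), and the mouse with the highest member score, mouse 1, the lowest (-2.1). In HF pregnant mice the highest member score was again in the mouse with the lowest B and T cell score, mouse 5 (-1.82), and in HF non pregnant mice the lowest was in the mouse with the highest, mouse 5 (1.93). Control non pregnant mice ran the other way, since mice 1 and 2 were lowest in both (-1.76 and -1.85 for B and T cells) and mice 3 and 5 highest in both (0.00 and 0.60). With that score as a covariate the median of the members was -0.17, with 74 of 78 lower and 0 called.

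Macrophage genes had a median of 0.35 with 15 of 17 higher and none called, and a summed intensity of 18390 to 27080, 23010 to 36400, 12740 to 35240 and 24280 to 37260 in the same order. Adipocyte genes had a median of -0.24 with 14 of 15 lower and 1 called, the glucose transporter Slc2a4 (-1.08, adjusted p = 0.0294). Their summed intensity was 107400 to 116900, 67250 to 124200, 83840 to 134300 and 83420 to 120500. The mice named for their B and T cell scores were also at the ends of the adipocyte score. It was highest in control pregnant mouse 1 (0.69) and HF pregnant mouse 5 (0.39). Its lowest values were in control pregnant mouse 2 (-0.54) and HF non pregnant mouse 5 (-0.94). Control non pregnant mice again differed, with mouse 2 highest (0.34). Such tracking was thus not particular to B and T cell genes. With the adipocyte score as a covariate the members had a median of -0.18 with 74 of 78 lower and 3 called. That count stands without the share of all probe sets called in the same fit.

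Brown fat genes had a median of -0.52 with 6 of 8 lower and 1 called, Cidea (-2.03, adjusted p = 0.0249). The 2 higher ones were Lhx8 (0.38) and Ebf2 (0.17), neither past the threshold. Summed intensity of the list was 2218 to 4601, 1039 to 3893, 1629 to 4262 and 1296 to 2608. The defining gene Ucp1 exceeded 100 in 0 of 20 arrays, and the tested ones included the respiratory isoforms Cox7a1 (-0.71) and Cox8b (-0.86), which are close relatives of the members. The score of this list had group means of 0.35 ± 0.28, -0.14 ± 0.42, 0.11 ± 0.43 and -0.32 ± 0.16 (SD, n = 5), lower on the HF diet in both pairs, with mice that overlapped between diets. With this score as a covariate the median of the members was -0.05, 68 of 78 were lower and 0 were called. Since the score itself differed by diet and holds relatives of the members, this smaller median can follow from the adjustment. No conclusion about the members is drawn from it. The same covariate moved the pregnancy comparison averaged over diets from a median of 0.03 to 0.12, with 0 members called. At an unadjusted p under 0.05, 43 members were then higher, where 6.59% of all probe sets were higher and 4.97% lower. The brown fat score was built from 13 genes, of which 8 were tested. It had lower means in pregnant than in non pregnant mice on both diets and holds relatives of the members. The shift can follow from the adjustment, so it is not read as a change of the members with pregnancy. Whether any of these cell types contributed to the differences of the members was not tested.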

How the data were processed

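Visceral fat RNA of 20 mice was measured on Affymetrix Mouse Genome arrays, 5 mice to a group, with groups taken from the labels. Per the labels and the study's methods, the authors normalised the scans by RMA (robust multi-array average; affy under R 2.8.0), and the deposited table holds linear intensity values for 45101 probe sets; array design names from the platform annotation were used, with 34958 probe sets of 1 gene symbol, 932 of several and 9211 of none. The values were taken to log2 without further normalisation. Robust multi-array average shrinks differences of dim probe sets, and its quantile step makes changes relative to the other genes of an array. The labels name Trizol for RNA where the methods name Qiagen columns, and give no scan date or batch.

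Probe sets over 100 in at least 5 of 20 arrays were tested (19802, without 64 manufacturer controls), and each gene was read by its probe set of highest mean. Limma 3.58.1 in R 4.3.3 was fitted with 4 group means, 7 comparisons were drawn from it, and p-values were adjusted by Benjamini-Hochberg over all tested probe sets with a threshold of 0.05. The study's methods describe the females as coming from different litters. The labels do not say which mice share a day, so p-values measure the spread between these mice. Members and gene lists were chosen with earlier results of these data known, and no test was made over a list. Named were the called members, the members of lowest p in each complex, those of opposite sign, paralogs, and the called or lowest-p genes of each list. Ndufa2, Ndufa13, Ndufc2, the choice of genes plotted by mouse, the printed promoters, the motifs and their factors' genes were picked after the values were seen. Lhx8 and Ebf2 were likewise named after the values were seen. Promoter windows came from RefSeq (GRCm38.p6); the deposited table names no build. Alternatives covered the filter, the moderation, array weights, centring, quantile normalisation, the probe set rule, a replicate block, each mouse left out, 2 control arrays left out, and marker scores as covariates, the last of these and the probe set suffix added after the data were seen. The procedure was tested on simulated data.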

Additional observations from a re-analysis of the deposited data

Results flagged for a closer look

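In 172 groups of 5 mice (37 members named by rule, many of them for their low p, and 6 scores, each in the 4 groups), 10 held a mouse whose gap to its nearest neighbour was large against the range of the group; chance alone gives such a gap in about 1 in 20 groups. HF pregnant mouse 5 accounted for 6 of them, each as the highest value of its group: the complex I score (0.09, the next mouse at -0.12), Cox6a1 (14.21 on the log2 scale), Cox6b1 (13.35), Cox8a (12.56), Sdhd (10.77) and Uqcr10 (11.66). That mouse also had the lowest B and T cell score of its group, -1.82 where the other 4 HF pregnant mice lay between 0.58 and 0.93, and the highest adipocyte score, 0.39. Without it 7 members were called lower on the HF diet, against 3 with it, and 1.58% of all probe sets against 1.11%. Atp5g1 was highest in control non pregnant mouse 3 (10.80, the next at 10.24), and Atp5g2 in control pregnant mouse 1 (11.19, the next at 11.04). Cox6b2 was lowest in control pregnant mouse 2 (5.58, the next at 6.53), a mouse with pancreatic and intestinal genes above the others. Cox7b2, below the intensity of 100 in all arrays, was lowest in HF pregnant mouse 1 (3.29).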

How the results depend on the processing

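The lower level of the members on the HF diet, averaged over pregnancy, kept its direction under all 34 other settings, with medians of -0.30 to -0.23 when 1 mouse was left out; the number of called members did not keep its size. It was 3, and became 70 with array weights (68 lower, 2 higher, where 16.8% of all probe sets were called lower and 29.3% higher), 42 (all lower, against 5.45% of all) without the 2 control arrays highest in pancreatic genes, and 0 with no filter on low values, with an unadjusted p under 0.05 joined to a 1.5-fold change, and with the B and T cell or brown fat score as a covariate. Leaving out 1 mouse gave 0 to 62. With the brown fat score the median was -0.05 averaged over pregnancy, -0.06 in non pregnant and -0.05 in pregnant mice. That score holds relatives of the members and was itself lower on the HF diet, so these values can follow from the adjustment. In non pregnant mice array weights called 54 members, all lower, instead of 0, with 14.3% of all probe sets called lower and 23.6% higher. In pregnant mice array weights called 27 (26 lower, with 3.95% of all lower and 2.94% higher), and both the 1.5-fold rule and the adipocyte score as a covariate 2, instead of 0. Array weights also called 3 in HF mice between pregnancy states, where 13.5% of all probe sets were called, and 2 for pregnancy averaged over diets, where 8.62% were, and the 1.5-fold rule called 1 in the interaction. The counts under the 1.5-fold rule and with the marker scores stand without the share of all probe sets, so they say nothing about the members in particular. The causes were not tested. Ndufb6, Ndufa10 and Atp5pb were called in 18, 16 and 15 of 34 alternatives. Among single genes, the averaged difference of Cox6b2, -0.01, ranged from -0.12 to 0.05 when 1 mouse was left out and became 0.00 with array weights and 0.14, 0.09 and 0.08 with the B and T cell, adipocyte and brown fat scores, and that of Atp5g1 to 0.02 with the brown fat score.

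The replicate numbers in the labels were checked as pairs. Deviations of same-numbered mice had a median correlation of -0.16 over 30 pairs (range -0.75 to 0.67), with 10 above 0.1, so the numbers were not taken as pairs. With a replicate block the averaged comparison called 0 members instead of 3, with a median of -0.26, and no other comparison changed its count of 0.

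With 5 mice a group, the within-group SD of a member was 0.20 on the log2 scale by median (0.09 to 0.37), near the size of the diet difference itself. Members not called may still differ, by amounts too small to be called with these arrays. Intensities near 100 are close to the background of the array.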
